A study of Homo sapiens with 8 samples.

Results

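Aminoacyl-tRNA synthetases are the enzymes that join each amino acid to its tRNA. Their genes were examined in the binding sites of PHF20 and of its relative PHF20L1. They were chosen by name: 18 genes for enzymes of the cytosol, 16 for enzymes of the mitochondria, GARS1 and KARS1 for enzymes that serve both compartments, and AIMP1 and AIMP2 for scaffold proteins that hold cytosolic synthetases together. These are 38 of 20033 protein-coding genes. Binding sites came from ChIP-Seq with an antibody against the HA tag in U2OS cells, a human osteosarcoma line. The cells over-expressed PHF20 with an HA tag at the N terminus, or PHF20L1 with an HA tag at the N terminus in 1 ChIP library and at the C terminus in the other two, and were sorted for GFP before the libraries were made. Each protein had its own input libraries, which were made without antibody. The PHF20 peaks came from 2 ChIP libraries and 1 input, and the PHF20L1 peaks from 3 ChIP libraries and 2 inputs. The tagged proteins were made in excess over the cells' own, in a single cell line, which limits the data as a model of the endogenous proteins.

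The 2 lists held 4147 peaks for PHF20 and 723 for PHF20L1. A peak is a stretch of the genome (hg38) where the ChIP had more reads than the input. Each list is 1 final list that combines replicates and gives the start and end of a peak with no height, so no spread between replicates can be given and the depth of the libraries is unknown from the lists. Width in bp was the sole size available. For each transcript, a promoter window was set that began 1000 bp before the transcription start site (TSS) and ended 500 bp after it, and a gene with a peak in at least 1 of its windows was called bound. A gene with no peak was not called in these lists, and weaker binding at it may have gone uncalled. Positions relative to the TSS are given for the canonical transcript of each gene, with negative values upstream.

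Human cells carry separate nuclear genes for most cytosolic and mitochondrial synthetases, since mitochondria translate their own mRNAs with their own tRNAs. Several cytosolic enzymes, among them those of EPRS1, IARS1, LARS1, MARS1, QARS1, RARS1 and KARS1, sit in one large complex on AIMP1 and AIMP2. Many cytosolic synthetase genes are known targets of ATF4, the transcription factor that cells raise when amino acids run short. PHF20 and PHF20L1 are each a subunit of the NSL histone acetyltransferase complex, which is found at the promoters of housekeeping genes. The authors of the data report that the proteins sit in separate NSL complexes. Both PHF20 and PHF20L1 carry Tudor domains that read methylated lysines.

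Sequences were searched on both strands for 5 motifs within 250 bp of each canonical TSS. Sites of 3 of them are shown here, since the genes that carry them are those to which the results return. Each line is a stretch of 30 bases of hg38, read from 5′ to 3′ on the strand given, with the motif in capitals. Sites shown do not overlap one another. A match is a description of the sequence and not evidence that a factor was bound. The ETS motif ACTTCCGG was present at 6 of 38 synthetase and scaffold genes (15.8%). It was present at 6.61% of all protein-coding genes and 9.30% of those with a CpG-rich start, as defined below. Its sites are shown for the shared start region of HARS1 and HARS2, which lay inside a PHF20 peak, and for PARS2, which had no peak. All 4 sites were upstream of the canonical TSS.
HARS1 and HARS2, site beside the HARS1 start (chr5:140691361-140691390, plus strand): cagcaaggatgACTTCCGGctatcgagtcg
HARS1 and HARS2, site beside the HARS2 start (chr5:140691436-140691465, minus strand): ccagcttcggcACTTCCGGgaggagccgga
PARS2, upper site (chr1:54764722-54764751, minus strand): tcctagaaagtACTTCCGGaacggtgattt
PARS2, lower site (chr1:54764640-54764669, minus strand): tctttggctacACTTCCGGaaaacctctca

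The ATF4 element TGATGNAA, the core of the amino acid response element, was present at 10 of 38 genes (26.3%), against 3.40% of all protein-coding genes and 1.60% of those with a CpG-rich start. A start was called CpG-rich when the 250 bp on each side of the TSS had a GC content of at least 50% and a ratio of observed to expected CpG of at least 0.6. The sites of IARS1, NARS1 and GARS1 lay inside a PHF20 peak. TARS1 and AARS1 had a PHF20 peak that did not reach the site, and CARS1 and MARS1 had no peak. By the canonical transcript, the sites of IARS1, GARS1 and AARS1 were upstream, those of NARS1 and TARS1 in the 5′ UTR, and those of CARS1 and MARS1 across the TSS itself.
IARS1 (chr9:92293692-92293721, plus strand): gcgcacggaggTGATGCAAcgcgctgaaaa
NARS1 (chr18:57621804-57621833, minus strand): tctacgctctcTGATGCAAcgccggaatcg
GARS1 (chr7:30594834-30594863, minus strand): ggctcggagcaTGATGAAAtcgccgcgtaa
TARS1 (chr5:33440956-33440985, minus strand): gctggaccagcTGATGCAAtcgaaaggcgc
AARS1 (chr16:70289675-70289704, plus strand): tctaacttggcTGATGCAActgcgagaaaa
CARS1 (chr11:3057407-3057436, plus strand): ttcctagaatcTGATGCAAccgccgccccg
MARS1 (chr12:57488053-57488082, minus strand): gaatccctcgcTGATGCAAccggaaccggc

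The YY1 motif AAGATGGCG was present at 5 of 38 genes (13.2%), against 3.52% of all protein-coding genes and 4.88% of those with a CpG-rich start. At 3 of the 5 genes the site covered the start codon, with 3 bases in the 5′ UTR and 6 in the coding sequence. KARS1 and YARS2 had the site inside a PHF20 peak, and WARS2 had no peak.
KARS1 (chr16:75647623-75647652, minus strand): gccctccgggAAGATGGCGgccgtgcaggc
YARS2 (chr12:32755858-32755887, minus strand): tgccgctaccAAGATGGCGgcgcccatctt
WARS2 (chr1:119140628-119140657, minus strand): cgcccttctcAAGATGGCGctgcactcaat

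PHF20 had a peak at the promoters of 19 of the 38 genes (Wilson 95% interval of the share 34.8% to 65.2%). Over all protein-coding genes the share was 20.7%, and over the 13521 genes with a CpG-rich start it was 28.6%. Of the 38 genes, 37 had such a start, against 67.5% of all protein-coding genes. The exception was WARS1, the cytosolic tryptophanyl enzyme, with a GC content of 48.1% and a CpG ratio of 0.139, which had no peak. PHF20L1 had a peak at 4 of the 38 genes (10.5%, 4.17% to 24.1%), with a background of 3.82% over all protein-coding genes and 5.20% over those with a CpG-rich start. Intervals cover counting over genes alone, and no test was made of the set against other genes. GC content was much alike in the genes with and without a PHF20 peak, with medians of 62.5% and 63.7%, as was the CpG ratio, with medians of 0.813 and 0.775.

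The genes of cytosolic and mitochondrial enzymes were then compared. Of the cytosolic genes, 6 of 18 had a PHF20 peak (33.3%, 16.3% to 56.3%): AARS1, HARS1, IARS1, NARS1, TARS1 and YARS1, which charge alanine, histidine, isoleucine, asparagine, threonine and tyrosine. Of the mitochondrial genes, 9 of 16 had one (56.2%, 33.2% to 76.9%): AARS2, FARS2, HARS2, IARS2, LARS2, NARS2, SARS2, TARS2 and YARS2, which charge alanine, phenylalanine, histidine, isoleucine, leucine, asparagine, serine, threonine and tyrosine. The cytosolic share was lower by 22.9 percentage points, with an interval of the difference (cytosolic minus mitochondrial) from -49.7 to 9.60, and did not pass the test (two-sided Fisher's exact test, p = 0.3, adjusted p = 0.3 over the 2 proteins). PHF20L1 had a peak at 0 of 18 cytosolic genes, where the limit set by a count of 0 is 16.7%, and at 2 of 16 mitochondrial genes (12.5%, 3.50% to 36.0%). This difference of -12.5 points (-36.0 to 7.26) did not pass the test either (two-sided Fisher's exact test, p = 0.21, adjusted p = 0.3). The intervals include both no difference and large differences. Genes are not replicates of a condition, so these p-values cover counting over genes only.

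**Figure D1:**
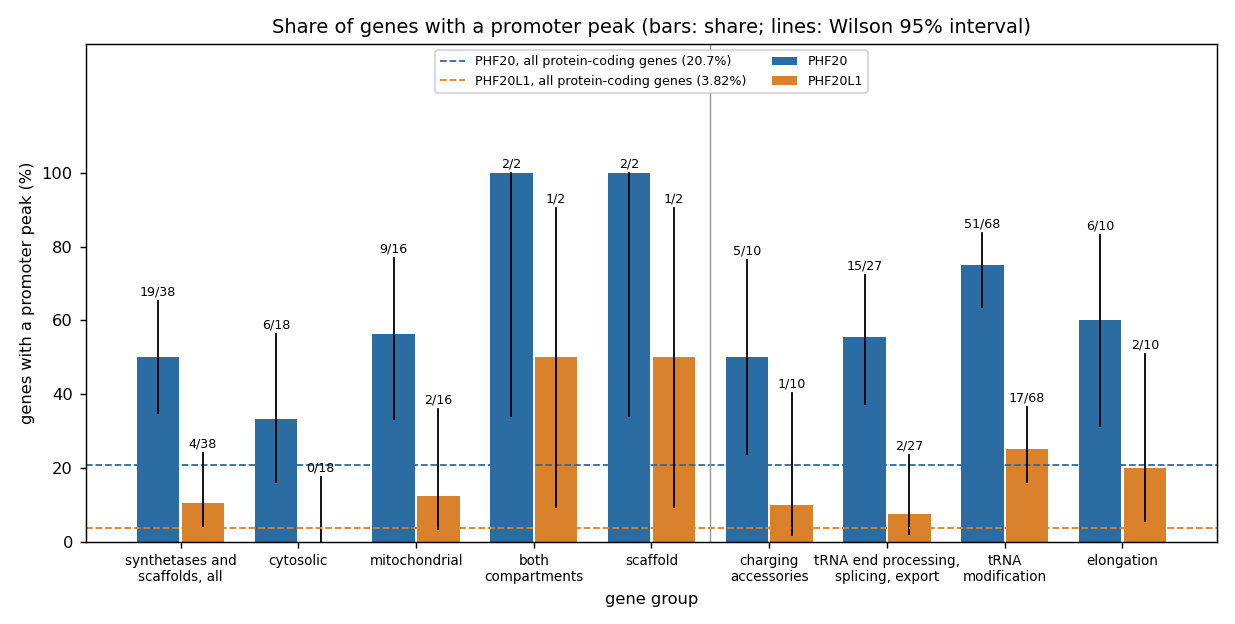
Share of genes with a promoter peak of PHF20 or PHF20L1 (y axis, percent) for the synthetase and scaffold genes and their classes (left of the grey line) and for other genes of the tRNA pathway (right). Lines on the bars are Wilson 95% intervals, numbers are bound genes of all genes, and dashed lines are the shares over all protein-coding genes, 20.7% and 3.82%; the cytosolic interval of PHF20 overlaps the mitochondrial one.

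Each of the 6 bound cytosolic genes had a bound mitochondrial counterpart for the same amino acid, AARS2, HARS2, IARS2, NARS2, TARS2 and YARS2. TARS3, the other cytosolic threonyl gene, had no peak. HARS1 and HARS2 have the same peak, described below, so the calls of this pair could hardly differ. Among all mitochondrial genes 9 of 16 were bound. No test was made of the pairing by amino acid. FARS2, LARS2 and SARS2 were bound in the mitochondrial class while FARSA, FARSB, LARS1 and SARS1 in the cytosolic class were not. GARS1 and KARS1, whose products charge glycine and lysine in both compartments, were both bound by PHF20, as were the scaffold genes AIMP1 and AIMP2. These 2 classes are too small for a share to be read from them.

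HARS1 and HARS2 shared a peak. Their canonical TSSs lie 85 bp apart on chromosome 5, on opposite strands, and a PHF20 peak of 950 bp (chr5:140691067-140692016) covered both. It reached from -646 to 303 bp of the HARS1 TSS and from -388 to 561 bp of the HARS2 TSS. The 84 bp between these TSSs hold 9 other annotated TSSs of the pair. Both ETS sites printed above lie within these 84 bp. The genes encode the cytosolic and mitochondrial histidyl enzymes, and 1 peak therefore counts once in each class. With both genes left out, the difference between the classes was -23.9 points for PHF20 (Fisher's exact test, p = 0.28).

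PHF20L1 peaks were found at GARS1, LARS2, YARS2 and AIMP1, each inside a PHF20 peak of the same promoter. At GARS1 the PHF20 peak was 995 bp wide (chr7:30594207-30595201, -671 to 323 bp of the TSS) and the PHF20L1 peak 290 bp (chr7:30594541-30594830, -337 to -48 bp). The PHF20L1 peak lay wholly upstream of the canonical transcript, and the ATF4 site printed above lies beyond its downstream edge. At LARS2, the mitochondrial leucyl enzyme, the peaks were 1023 bp (chr3:45388189-45389211) and 336 bp (chr3:45388446-45388781), and both spanned the TSS. At YARS2, the mitochondrial tyrosyl enzyme, they were 995 bp (chr12:32755074-32756068) and 491 bp (chr12:32755414-32755904). The PHF20L1 peak of YARS2 had 461 of its bases in coding sequence. At AIMP1, they were 1206 bp (chr4:106315787-106316992) and 519 bp (chr4:106316049-106316567). The PHF20L1 peak filled 29.1% of the PHF20 peak at GARS1, 32.8% at LARS2, 43.0% at AIMP1 and 49.3% at YARS2. The centres of the paired peaks were 19 bp apart at GARS1 and between 81 and 88 bp apart at the other three. No synthetase or scaffold gene had a PHF20L1 peak alone, as was so for nearly all protein-coding genes, of which 19 of 766 with a PHF20L1 peak (2.48%) had no PHF20 peak. Of the 19 genes with a PHF20 peak, 4 also had one of PHF20L1 (21.1%), while for all protein-coding genes this was 747 of 4148 (18%).

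**Figure D2:**
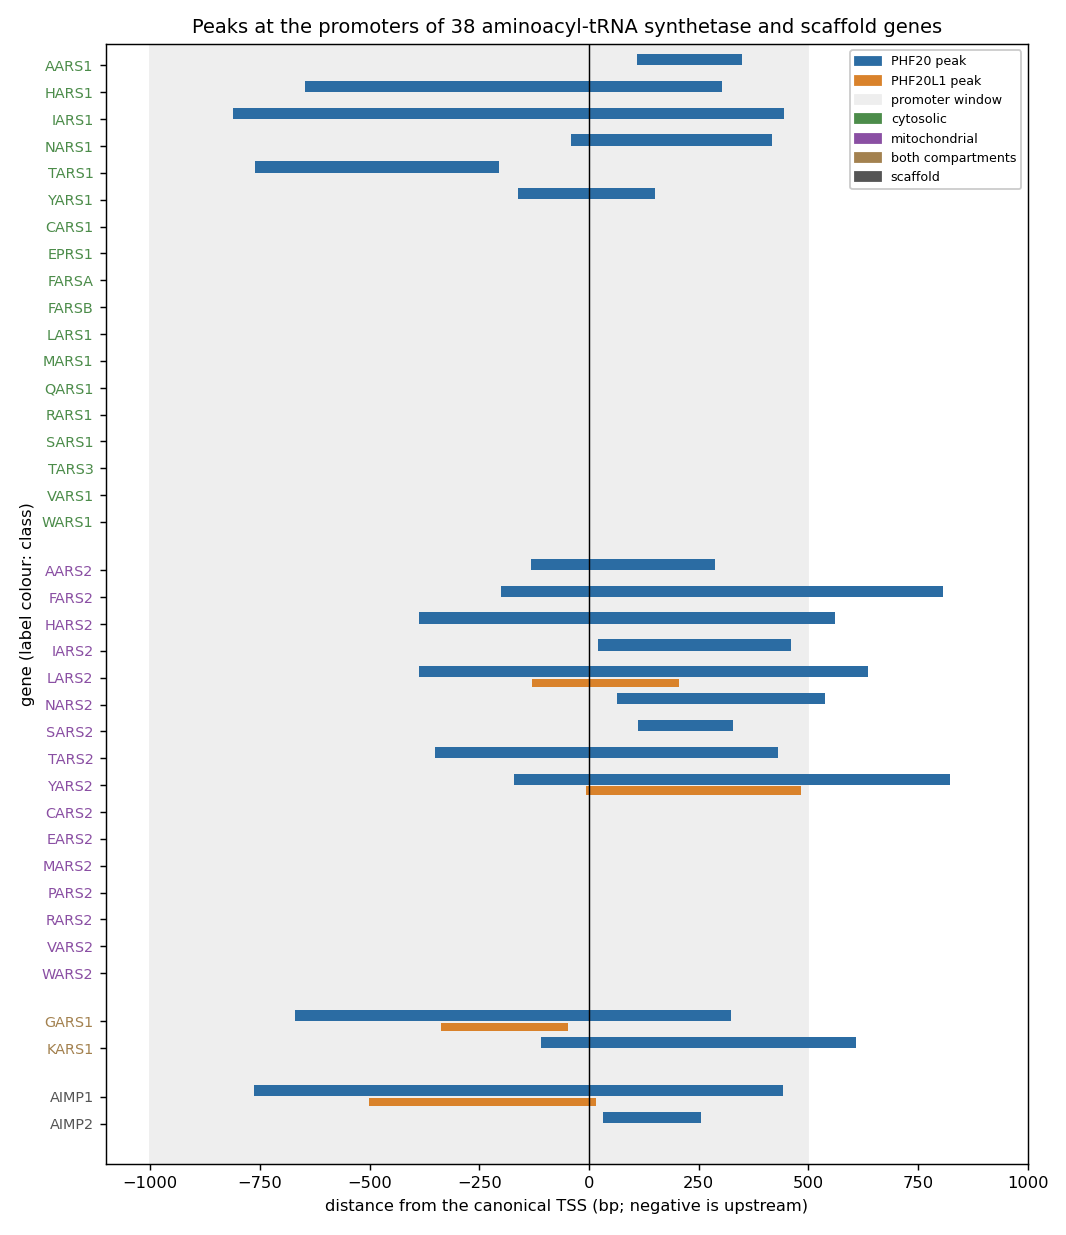
Extent of each PHF20 (blue) and PHF20L1 (orange) peak at the 38 genes, in bp from the canonical TSS (x axis, with negative values upstream), with genes in rows coloured by class and the promoter window in grey. The 4 PHF20L1 peaks lie inside PHF20 peaks, the peak of TARS1 ends at -206 bp, and rows without a bar are genes with no peak in the window.

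The widest PHF20 peaks at these genes were those of IARS1, AIMP1, LARS2, FARS2, GARS1 and YARS2, of which GARS1 and YARS2 were of equal width. IARS1, the cytosolic isoleucyl enzyme, had a peak of 1258 bp (chr9:92293252-92294509), at percentile 94.6 of PHF20 widths. It ran from 812 bp upstream to 445 bp downstream, over 87 bp of 5′ UTR and 359 bp of intron. AIMP1 had the next widest, at percentile 93.0, followed by LARS2 at percentile 84.1. FARS2, the mitochondrial phenylalanyl enzyme, had a peak of 1008 bp (chr6:5261313-5262320) at percentile 83.1, most of it (660 bp) in the intron. IARS1 and FARS2 had no PHF20L1 peak, although their PHF20 peaks were wider than that of GARS1, which had one.

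The narrowest peaks were those of SARS2, AIMP2 and AARS1, and none of these reached the canonical TSS. SARS2, the mitochondrial seryl enzyme, had a peak of 219 bp (chr19:38930434-38930652) at percentile 4.49, from 111 to 329 bp downstream and with 183 bp in coding sequence. AIMP2 had one of 224 bp (chr7:6009305-6009528) at percentile 5.40, from 33 to 256 bp downstream. AARS1, the cytosolic alanyl enzyme, had one of 241 bp (chr16:70289157-70289397) at percentile 7.64, from 109 to 349 bp downstream and wholly in an intron. The peaks of AARS1 and SARS2 also lay at the promoters of DDX19B and MRPS12, and that of AIMP2 at the promoter of a divergent protein-coding gene. These short peaks therefore cannot be assigned to the synthetase or scaffold gene rather than to its neighbour.

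The other bound genes had peaks between these. TARS2 had one of 784 bp and KARS1 one of 718 bp, both across the TSS. TARS1 had one of 556 bp that lay wholly upstream, from -761 to -206 bp. The peak of NARS2 was 477 bp and that of IARS2 442 bp, both downstream of the TSS and over 5′ UTR and coding sequence. NARS1 had 459 bp, AARS2 421 bp and YARS1 313 bp, each across the TSS. Over the 18 distinct peaks the median width was 637 bp, much like the 635 bp of 3562 PHF20 peaks at protein-coding promoters. The median was 507.5 bp at cytosolic and 784 bp at mitochondrial genes, with ranges of 241 to 1258 bp and 219 to 1023 bp that overlap almost fully. Of the 19 pairs of gene and peak, 13 spanned the canonical TSS.

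**Figure D3:**
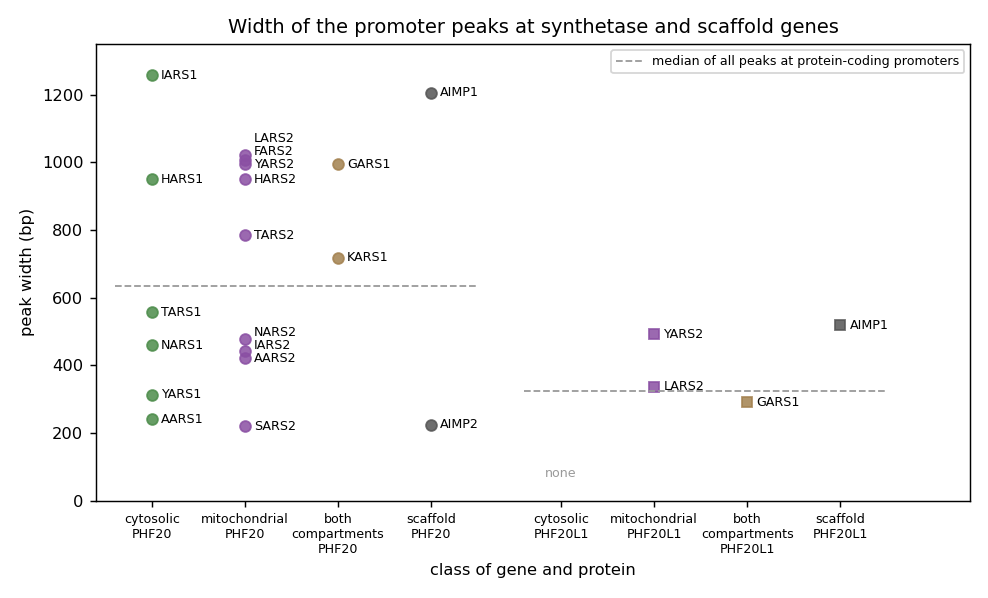
Width in bp (y axis) of each promoter peak of PHF20 (circles) and PHF20L1 (squares), by class of gene (x axis). Dashed lines are the medians of all peaks at protein-coding promoters, 635 bp for PHF20 and 323 bp for PHF20L1; cytosolic and mitochondrial widths cover nearly the same range.

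At the mitochondrial genes 6 of 9 PHF20 peaks spanned the canonical TSS, but their centres lay on one side of it. The centre of the PHF20 peak was downstream of the canonical TSS at 9 of 9 bound mitochondrial genes, by 40 to 326 bp with a median of 220 bp. At the 6 bound cytosolic genes it was downstream at 2, AARS1 and NARS1, and upstream at 4, HARS1, IARS1, TARS1 and YARS1, with a median of -88 bp. The YARS1 centre counts as upstream by a small margin, at -5 bp in a peak of 313 bp that spanned the TSS. The peak shared by HARS1 and HARS2 counts as upstream for the first and downstream for the second, since the genes lie on opposite strands, and so adds to the contrast in both classes. Over all protein-coding genes 49.8% of PHF20 centres were downstream, with a median of -1 bp. With the outermost TSS of each gene in place of the canonical one, chosen after the data were seen, the mitochondrial count stayed 9 of 9, the cytosolic count became 3 of 6 and the share of all genes 65.6%. This pattern was seen in the data and no test was made of it.

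No unbound gene had a PHF20 peak close by, and none of the 38 genes had a peak in the gene body outside its promoter. Such peaks were rare in general, at 1.83% of all protein-coding genes for PHF20 and 0.374% for PHF20L1. The distance from the canonical TSS of the 19 unbound genes to the nearest PHF20 peak had a median of 113542 bp. The nearest was QARS1, the glutaminyl enzyme, at 9946 bp. In the cytosolic class it was followed by LARS1 at 20740 bp, FARSA at 23137 bp, EPRS1 at 47647 bp and RARS1 at 92657 bp. MARS1 was 103096 bp away, SARS1 113542 bp, WARS1 182384 bp, CARS1 321156 bp and TARS3 389586 bp. FARSB, the partner subunit of FARSA, was 1288972 bp away and VARS1 1825711 bp. Among the mitochondrial genes PARS2 was 48015 bp away, CARS2 89960 bp, EARS2 104068 bp and WARS2 152952 bp. MARS2 was 188800 bp away, RARS2 433927 bp and VARS2 2470451 bp. No PHF20 peak thus lay just outside the promoter window, and windows of 500 bp on each side, or of 2000 bp before and 1000 bp after the TSS, also gave counts of 19 genes for PHF20 and 4 for PHF20L1. The shares over all protein-coding genes were 20.4% and 3.77% with the first of these windows and 21.0% and 3.87% with the second.

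Many of these genes face another protein-coding gene. A divergent coding start within 1000 bp was found at 10 of 38 genes (26.3%), against 9.46% of all protein-coding genes and 12.9% of those with a CpG-rich start. Of these 10, 8 were bound by PHF20: HARS1, HARS2, YARS1, KARS1, FARS2, SARS2, AIMP1 and AIMP2. EARS2, which faces UBFD1 at 377 bp, and RARS2, which faces ORC3 at 148 bp, were not bound. YARS1 faces S100PBP at 295 bp, KARS1 faces TERF2IP at 108 bp, SARS2 faces MRPS12 at 181 bp, AIMP1 faces TBCK at 341 bp and FARS2 faces LYRM4 at 563 bp. MRPS12 encodes a mitochondrial ribosomal protein and LYRM4 a protein of mitochondrial iron-sulphur cluster assembly. Without a divergent partner 11 of 28 genes were bound (39.3%, 23.6% to 57.6%). Over all protein-coding genes the shares were 46.6% with and 18% without a divergent start, and over CpG-rich starts 48.5% and 25.7%. Divergent starts were found at 2 of 18 cytosolic and 5 of 16 mitochondrial genes. Among genes without one, 4 of 16 cytosolic (25.0%) and 6 of 11 mitochondrial genes (54.5%) were bound by PHF20. Among genes with one the order was the opposite, with 2 of 2 cytosolic and 3 of 5 mitochondrial genes bound. A peak between 2 starts counts for both genes, and which gene the protein was bound for cannot be told apart.

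The motifs are described by class, with no test. The ATF4 element was found at 8 of 18 cytosolic genes (44.4%): AARS1, CARS1, EPRS1, IARS1, MARS1, NARS1, TARS1 and YARS1. In the mitochondrial class it was found at YARS2 alone, 1 of 16 (6.25%), and among the remaining genes at GARS1. In a window of 500 bp on each side it was present at 13 of 38 genes (34.2%), 10 of 18 cytosolic and 2 of 16 mitochondrial, against 7.47% of all protein-coding genes. At 7 of the 10 genes with an element within 250 bp, it was within 50 bp of the TSS, while this was so for 18.6% of the 681 protein-coding genes with an element. Among the cytosolic genes, 5 of 6 with a PHF20 peak and 3 of 12 without one had the element. Over all protein-coding genes the element was present at 2.03% of those bound by PHF20 and 3.76% of the others. Of the 7 bound genes with an element, 4 had it inside the peak (IARS1, NARS1, YARS1 and GARS1). YARS1 had its element 3 bp into the 5′ UTR. These are counts of letters in few genes, and no relation between ATF4 and PHF20 was tested.

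Within 250 bp of the TSS the ETS motif was present at 3 of 19 bound genes (HARS1, HARS2 and NARS1) and 3 of 19 unbound genes (CARS1, EARS2 and PARS2), 15.8% in each. HARS1 and HARS2 are counted here for the same 2 sites. Over all protein-coding genes it was present at 17.5% of those bound by PHF20 and 3.77% of the others. In a window of 500 bp on each side it was present at 5 of 19 bound and 3 of 19 unbound genes, against 20.3% and 4.73% over all protein-coding genes. Among the cytosolic genes it was present at 2 of 6 bound and 1 of 12 unbound genes within 250 bp, and at 4 of 6 and 1 of 12 within 500 bp. The E-box CACGTGAC was found at 0 of 38 genes, which allows no statement about the factors that bind E-boxes, and at 3.72% of all protein-coding genes. The NRF1 sequence GCANGCGC, a part of the NRF1 site and not the whole of it, was present at 15 of 38 genes (39.5%). It was present at 20.5% of all protein-coding genes and 28.3% of those with a CpG-rich start. Within 500 bp of the TSS it was again present at 15 of 38 genes, against 28.3% of all protein-coding genes and 38.2% of those with a CpG-rich start, a share close to that of the 38 genes. NRF1 is a transcription factor of nuclear genes for mitochondrial functions, and the sequence was found at 7 of 16 mitochondrial (43.8%) and 6 of 18 cytosolic genes (33.3%). At MARS2 and VARS2, 2 sites on opposite strands overlap. The NRF1 sequence was present at 9 of 19 bound genes (47.4%) and 6 of 19 unbound genes (31.6%), against 27.7% and 18.6% over all protein-coding genes. HARS1 and HARS2 are counted for the same NRF1 site, which therefore enters the counts of both classes and of the bound genes more than once. The YY1 motif was present at 3 of 19 bound and 2 of 19 unbound genes, against 7.28% and 2.54%.

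**Figure D4:**
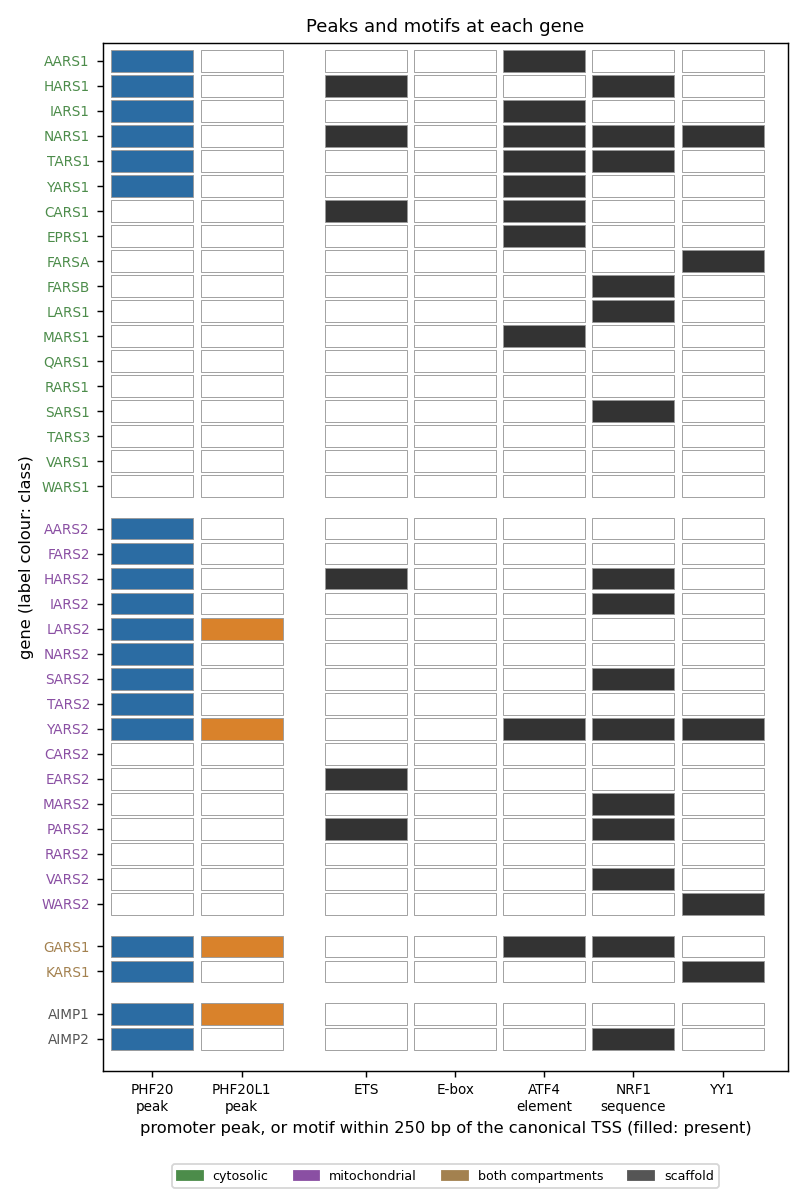
Presence (filled) of a PHF20 or PHF20L1 promoter peak and of each of 5 motifs within 250 bp of the canonical TSS (x axis), for each of the 38 genes (y axis, coloured by class, bound genes first). The ATF4 element fills 8 of 18 cytosolic rows and 1 of 16 mitochondrial rows, and the E-box column is empty.

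Other genes that make, modify or use tRNAs were taken from 4 lists. PHF20 had a peak at 77 of 115 of these genes (67.0%, 57.9% to 74.9%) and PHF20L1 at 22 of 115 (19.1%, 13.0% to 27.3%), beside backgrounds of 20.7% and 3.82%. Genes of tRNA modification had the highest share, with 51 of 68 for PHF20 (75.0%, 63.6% to 83.8%) and 17 of 68 for PHF20L1 (25.0%, 16.2% to 36.4%). Among the 17, the widest PHF20 peaks were at OSGEPL1 (1495 bp), which helps to modify adenosine next to the anticodon in mitochondrial tRNAs, and at TRUB2 (1434 bp), a mitochondrial pseudouridine synthase. Genes of tRNA end processing, splicing and export were bound by PHF20 at 15 of 27 (55.6%, 37.3% to 72.4%), and by PHF20L1 at POP4, a protein of RNase P, and FAM98B, a subunit of the tRNA ligase complex.

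Accessories of tRNA charging were bound by PHF20 at 5 of 10 genes (23.7% to 76.3%). GATB, GATC and QRSL1 encode the amidotransferase that makes glutaminyl-tRNA in mitochondria, and each had a PHF20 peak, of 1443, 1226 and 1020 bp. GATB also had a PHF20L1 peak of 409 bp. MTFMT, which formylates the mitochondrial initiator tRNA, had a peak of 493 bp, and PTRH2, a peptidyl-tRNA hydrolase, one of 904 bp. AARSD1, DTD1, DTD2 and EEF1E1 were among the genes with no peak. EEF1E1 encodes a further scaffold protein of the synthetase complex, also called AIMP3, which was counted in this list and not with AIMP1 and AIMP2. Translation elongation factors were bound at 6 of 10 genes (60.0%, 31.3% to 83.2%). The mitochondrial factors TUFM (437 bp), TSFM (758 bp), GFM1 (814 bp) and GFM2 (935 bp) each had a PHF20 peak, and TSFM and GFM1 a PHF20L1 peak as well. Of the cytosolic factors, EEF1A1 (360 bp) and EEF1B2 (1138 bp) had a peak while EEF1A2, EEF1D, EEF1G and EEF2 did not. This split of the elongation list by compartment was made after its values were seen, and it was not tested.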

How the data were processed

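HA ChIP-Seq libraries of U2OS cells were aligned to hg38 with Bowtie 1.1.2 by the authors, who kept unique and deduplicated reads, called peaks with MACS2 2.2.7.1 relative to the input (reads extended to 200 bp), removed blacklisted regions and combined replicates into 1 list per protein. Libraries varied in signal, and the library with the best signal had a stricter p-value threshold for peaks than the others. The peaks of that library were kept where they overlapped peaks of the other libraries. The start, end and width of each peak thus come from 1 library per protein. Another PHF20 library was left out by the authors because few peaks were called in it. The deposited values are the chromosome, start and end of each peak, on no scale of signal, so neither depth per library nor the spread between replicates can be computed from them.

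Peaks were compared with GENCODE 44, a later release than the authors used, on coordinates counted from 1. Genes of the mitochondrial genome were left out. Wilson 95% intervals were computed for shares, and where a count was 0 the limit was taken as 3 counts. The classes were compared with two-sided Fisher's exact tests and Newcombe intervals, adjusted by Benjamini-Hochberg over 2 tests. The members, classes, pathway lists, motifs and tests were chosen with earlier results of these data known. Genes named with full values were those with a PHF20L1 peak, with the 5 widest or 3 narrowest PHF20 peaks, or with a peak shared by another member. Motif sites were read from hg38 and printed for genes that also had an entry in the RefSeq promoter table, which matched 32 of 38 genes. Alternatives were other TSS sets, windows, peak widths, overlap rules, class assignments and sequence windows. Python 3.11.15, pysam 0.24.0, scipy 1.17.1, numpy 2.4.6 and matplotlib 3.10.9 were used. Tested on simulated data, the overlap step found 300 of 300 planted promoter peaks among 2000 genes with 0 false calls. Values of single genes are not reported here for part of the pathway lists. Other assays of the study were not analysed here.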

Additional observations from a re-analysis of the deposited data

How the results depend on the processing

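No paired analysis was possible because both peak lists join the replicates and give no value for a single library. That reason applies to pairs of libraries only, and for the same reason no replicate could be left out. Genes for the same amino acid could be paired across the classes by their calls, but such a comparison was not tested. Fisher's exact test treated the genes as independent and took no account of these pairs. The cytosolic share stayed below the mitochondrial share, without passing the test, under each of the 11 planned or added alternatives, from -28.5 to -16.2 points for PHF20 (Fisher's exact test, p from 0.16 to 0.5) and from -13.3 to -7.50 points for PHF20L1 (p from 0.21 to 0.57). Both other windows, the canonical TSS alone, TSSs of protein-coding transcripts and the peak centre left the class counts of both proteins unchanged. These alternatives therefore add no separate check of the difference. Leaving out VARS1 and VARS2, an alternative chosen after the data were seen, gave -24.7 and -13.3 points. The count of genes bound by PHF20 stayed at 19 with the canonical TSS alone, where 19.1% of all protein-coding genes were bound. It was 16 with the outermost TSS, where that share was 17.8%, and 10 when narrower peaks than the list's median were dropped, where it was 12.1%. The count for PHF20L1 was 2 with the outermost TSS only (3.21% of all protein-coding genes), since that TSS of GARS1 and AIMP1 lies upstream of the peak. Overlap of at least 50% of both peaks was met at 0 of the 4 genes with both, against 172 of 747 protein-coding genes with both (23.0%). The depth of the libraries, which sets which peaks could be called, is unknown from the lists.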

Other observations

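Both genes of valyl-tRNA synthetases, VARS1 and VARS2, lie on chromosome 6 in a stretch of 5177675 bp without a PHF20 peak (chr6:28443788-33621462, hg38). The stretch holds 185 protein-coding genes, 79 of them with a CpG-rich start, and 1 of the 185 was called bound by PHF20, through the peak at the end of the stretch, which its promoter window reaches. This was the most CpG-rich starts in any gap between neighbouring PHF20 peaks, ahead of 76 in a gap of 32786864 bp on chromosome X and 52 in another gap there. Its cause was not tested.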
